A study of Mus musculus with 16 samples.

Results

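Clec11a and 8 other genes, Lgals1, Mybpc3, F2rl2, Rapgef3, Pde10a, Mgst2, Lmo1 and Robo3, were examined in mouse haematopoietic stem and progenitor cells after azacitidine. These 9 genes were taken by symbol from 30141 gene identifiers in the deposited counts. They had been listed because their levels were higher with azacitidine in an earlier treatment of the same libraries, so their differences between treated and vehicle libraries are described here without a test. RNA was sequenced from LSK cells (lineage-negative, Sca1-positive, Kit-positive), the marrow fraction that holds stem cells and early progenitors. The design crosses genotype (WT or DNMT3A R882H) with treatment (azacitidine or NaCl). WT cells gave 4 libraries under NaCl and 3 under azacitidine, and R882H cells 4 and 5.

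The R882H allele is a human DNMT3A sequence carrying R882H behind a floxed stop cassette in C57BL/6N-derived mice. It is switched on by Cre from the interferon-responsive Mx1 promoter, and Cre in that transgene is not limited to blood cells. The labels write the allele as heterozygous, so a WT copy of mouse Dnmt3a remains. All donors were given poly(I:C), an inducer of interferon, at 15 µg per g; another schedule with 400 µg is also described, with no word on which animals it was for. Whether the WT donors carried the Cre transgene, and the age of the animals, are not given in the sources used here. In every group, donor marrow was harvested 4 weeks after poly(I:C), mixed 1:1 with WT competitor marrow and transplanted. Treatment began 2 weeks after transplantation and lasted 2 weeks (azacitidine at 2.5 mg per kg or 0.9% NaCl, in courses of 5 days with a break of 2). No marker that would keep donor cells only is named for the sort, so competitor and host cells may be part of each library. Nothing ties each library to a separate recipient either, and the p-values below then measure only the spread between these libraries.

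Azacitidine is a cytidine analogue that is incorporated into nucleic acids and traps DNA methyltransferases on DNA, after which newly copied strands lose methylation at CpG sites. DNMT3A is the de novo methyltransferase most often mutated in clonal haematopoiesis and acute myeloid leukaemia, and R882 is its recurrently mutated residue. The 9 genes belong to unrelated families: Clec11a encodes a secreted C-type lectin first described as a growth factor of haematopoietic progenitors and later as an osteogenic factor (osteolectin), and Lgals1 the secreted galactoside-binding lectin galectin-1. F2rl2 (protease-activated receptor 3) and Robo3 (a receptor of the roundabout family) lie in the membrane, Rapgef3 (EPAC1) and Pde10a sense and degrade cyclic nucleotides, and Mgst2 is a microsomal glutathione transferase. Lmo1 is a LIM-only transcriptional cofactor known as a T cell leukaemia oncogene, and Mybpc3 encodes cardiac myosin-binding protein C.

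Since azacitidine leads to a loss of methylation at CpG sites, the 250 bases before the RefSeq start are shown first for 4 members that differ in CpG content. They are RefSeq sequences of GRCm38.p6, printed 5′ to 3′ on the strand of the gene, with each CG in capitals. The windows are Clec11a at chr7:44306960-44307209 (minus strand), Mybpc3 at chr2:91117894-91118143 (plus), Mgst2 at chr3:51660929-51661178 (plus) and the first of the Lmo1 windows at chr7:109175208-109175457 (minus).
Clec11a: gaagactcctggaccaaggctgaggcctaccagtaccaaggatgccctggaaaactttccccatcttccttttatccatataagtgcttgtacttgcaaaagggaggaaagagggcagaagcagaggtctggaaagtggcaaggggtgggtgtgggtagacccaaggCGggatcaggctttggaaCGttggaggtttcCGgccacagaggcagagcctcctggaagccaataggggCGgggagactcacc
Mybpc3: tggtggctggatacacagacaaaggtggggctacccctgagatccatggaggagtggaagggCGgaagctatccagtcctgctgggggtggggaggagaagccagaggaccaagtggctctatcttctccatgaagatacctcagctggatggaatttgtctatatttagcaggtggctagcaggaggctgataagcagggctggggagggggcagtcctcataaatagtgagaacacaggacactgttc
Mgst2: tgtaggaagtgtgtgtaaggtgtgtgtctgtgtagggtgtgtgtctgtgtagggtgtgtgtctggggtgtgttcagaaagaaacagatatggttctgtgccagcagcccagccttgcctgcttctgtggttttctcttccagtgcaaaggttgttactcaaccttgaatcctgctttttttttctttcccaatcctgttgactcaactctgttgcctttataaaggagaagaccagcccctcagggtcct
Lmo1: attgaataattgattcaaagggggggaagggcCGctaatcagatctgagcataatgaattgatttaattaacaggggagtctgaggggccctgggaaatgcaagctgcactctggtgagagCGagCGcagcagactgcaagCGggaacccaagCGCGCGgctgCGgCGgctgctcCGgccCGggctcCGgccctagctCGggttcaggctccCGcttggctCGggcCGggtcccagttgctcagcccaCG

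RefSeq starts are not always those of the GENCODE gene positions given with each gene below. The windows of Clec11a and Mybpc3 and the first of Lmo1 lie outside the GENCODE span of the gene. Those of Mgst2, Rapgef3 and Pde10a (both) lie inside it, and those of F2rl2 and Robo3 and the second of Lmo1 overlap it by 67, 71 and 58 bases, all of them exonic. The Clec11a window holds 4 CpG, F2rl2 and Mybpc3 1 each and Mgst2 none. The others were richer: Robo3 12, Rapgef3 15, Lmo1 17 and 29 in its windows, and Pde10a 21 and 4. Over 32851 windows of the same length from 27025 symbols, the median was 6 CpG and the quartiles were 2 and 16. The members thus lay on both sides of the median, with 29 CpG in the Lmo1 window above 93.2% of all windows. RefSeq sequences were matched for 8 of the 9 members, with 10 windows, and Lgals1 had no entry. No methylation was measured in these libraries, and the count of CpG says nothing of their methylation.

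Short motifs were searched on both strands in the same windows, where an N stands for any base. A GC box (GGGCGG, which contains a CG and so overlaps the bases in capitals) was found in 6 of 8 members, against 32.7% of all windows. An E-box (CANNTG) was found in 6 members, against 66.2% of windows, and a CCAAT box (CCAAT) in 3, against 33.8%. The AP-1 letters TGANTCA were found in 3 members, against 6.75%, and the RUNX letters TGTGGT in 2, against 14.05%. TATAAA was found in Mgst2 only, against 12.4%, and AGATAA, read by GATA factors, in F2rl2 only, against 9.99%. The letters GAGGAAGT, TGACGTCA and GCGTGGGCG were found in no member window, against 2.44%, 1.55% and 0.536% of all windows. Members with several windows had more chances of a match than a single window, and a match is a description of letters.

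Total counts ran from 35860445 to 56012766 per library, and repeat families took 2.97 to 10.1% of them. Mouse Dnmt3a, the counterpart of the knocked-in human gene, averaged 96.7, 105, 90.5 and 96.2 CPM in WT with NaCl, WT with azacitidine, R882H with NaCl and R882H with azacitidine; the deposited counts do not part the human mutant transcript from it. Kit and Cd34, which mark these cells, were at 410 to 1226 and 427 to 1376 CPM, and Ly6a, the gene of Sca1, at 30.6 to 275. Stem cell markers (11 genes) summed to 454 to 985 CPM in the vehicle libraries numbered 1 and 2 and to 1452 to 1853 in those numbered 3 and 4, and the meaning of the number is not labelled. Values are therefore given by library, in the order of the replicate numbers, as CPM, gene counts scaled to a common library size after TMM normalisation.

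Clec11a (ENSMUSG00000004473, chromosome 7, 44302687 to 44306902, minus strand) was at 12.0, 11.6, 6.73 and 6.96 CPM in the 4 WT libraries with NaCl and at 25.8, 42.8 and 14.4 in the 3 with azacitidine. In R882H it was at 10.01, 9.12, 7.09 and 7.16 CPM with NaCl and at 22.2, 22.3, 23.7, 19.2 and 18.9 with azacitidine. Every treated library was above every NaCl library in both genotypes, and the treated WT libraries were spread over a wider range than the treated R882H libraries. The group means were 9.31 ± 2.85 (SD, n = 4) and 27.6 ± 14.3 (n = 3) in WT, and 8.34 ± 1.45 (n = 4) and 21.3 ± 2.10 (n = 5) in R882H, ratios of 2.97 and 2.55. The fitted log2 changes were 1.57 (SE 0.30) in WT and 1.35 (SE 0.28) in R882H. The vehicle libraries numbered 1 and 2 held the higher Clec11a values of both genotypes, and the treated libraries lay above them as well.

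**Figure D1:**
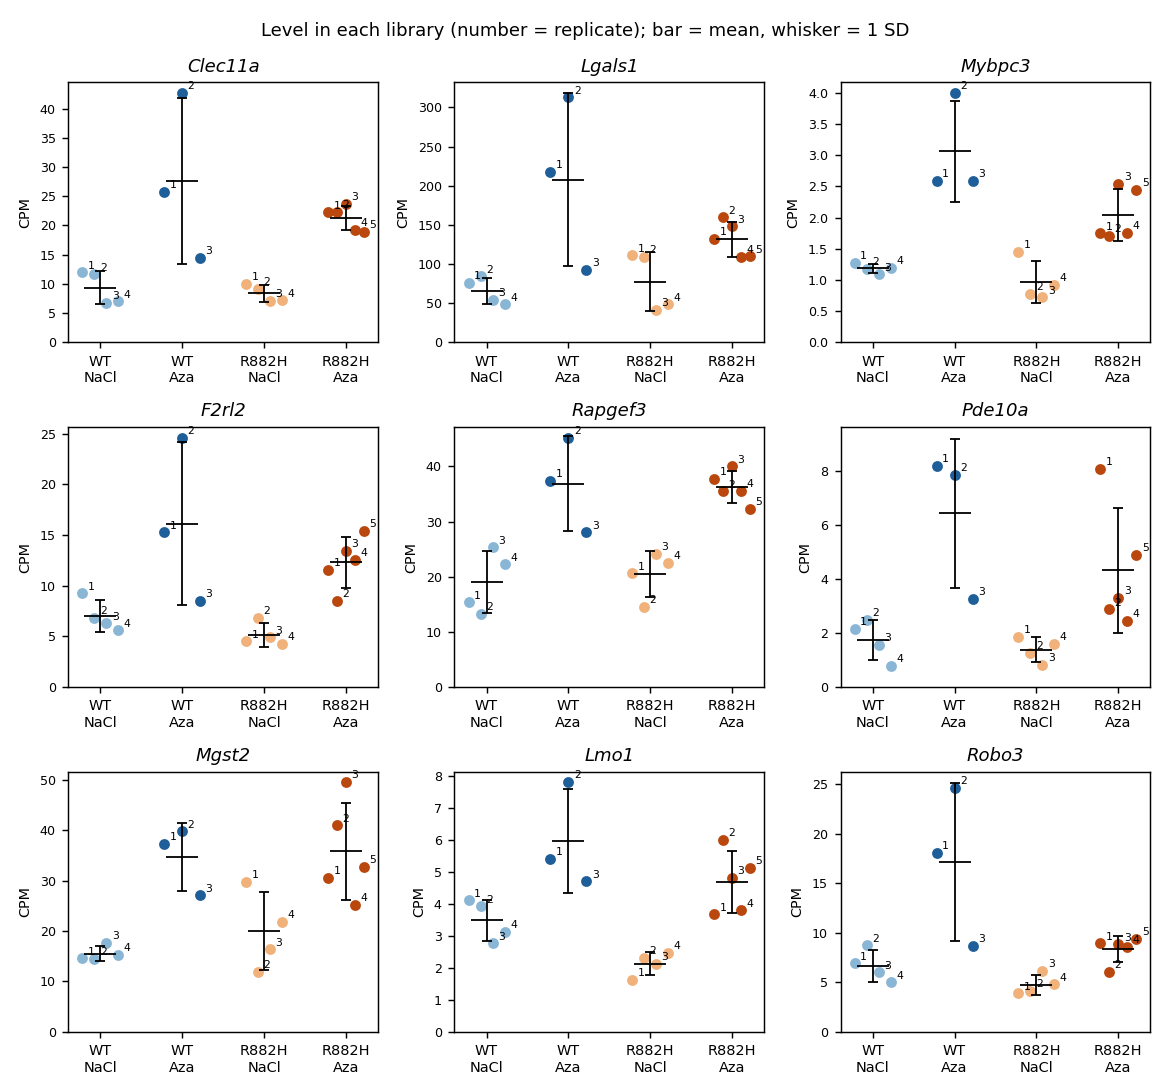
Level of each of the 9 genes in CPM (vertical axes, linear from 0, each gene with its own scale) in the 16 libraries, by group; points are libraries with their replicate number, bars means and whiskers 1 SD. Clec11a lies at 6.73 to 12.0 CPM in WT with NaCl and at 14.4 to 42.8 with azacitidine, without overlap, while Robo3 overlaps between treatments in both genotypes.

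Lgals1 (ENSMUSG00000068220, chromosome 15, 78926725 to 78930465, plus strand), whose galectin-1 product binds cell surface glycans, was the most abundant member. It was at 75.6, 83.8, 53.7 and 48.2 CPM in WT with NaCl and at 218, 313 and 92.1 with azacitidine. In R882H it was at 111, 109, 41.3 and 47.9 CPM with NaCl and at 132, 159, 148, 109 and 109 with azacitidine. The WT groups did not overlap. In R882H, NaCl replicates 1 and 2 were above 100 CPM and replicates 3 and 4 below 50, and the highest vehicle library, at 111 CPM, was above treated replicates 4 and 5. The log2 changes were 1.67 (SE 0.39) in WT and 0.77 (SE 0.34) in R882H, and the latter was 1.56 without NaCl replicates 1 and 2.

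F2rl2 (ENSMUSG00000021675, chromosome 13, 95696853 to 95702739, plus strand) encodes a thrombin-cleaved receptor that works mainly as a cofactor of other protease-activated receptors. It was at 9.25, 6.83, 6.28 and 5.57 CPM in WT with NaCl and at 15.2, 24.6 and 8.52 with azacitidine. R882H libraries held 4.49, 6.83, 4.88 and 4.23 CPM with NaCl and 11.6, 8.49, 13.4, 12.5 and 15.4 with azacitidine. The R882H groups did not overlap, whereas in WT the third treated library was below the first vehicle library. The log2 changes were close to each other, 1.21 (SE 0.31) in WT and 1.27 (SE 0.29) in R882H.

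Robo3 (ENSMUSG00000032128, chromosome 9, 37415669 to 37433246, minus strand), a receptor best known from axons that cross the midline, was at 6.90, 8.72, 6.03 and 4.99 CPM in WT with NaCl and at 18.1, 24.7 and 8.70 with azacitidine. In R882H the values were 3.90, 4.13, 6.15 and 4.79 CPM with NaCl and 8.93, 6.08, 8.85, 8.60 and 9.41 with azacitidine. The groups overlapped in both genotypes, by 1 pair of libraries each: WT treated replicate 3 was just below vehicle replicate 2, and R882H treated replicate 2 just below vehicle replicate 3. The log2 changes were 1.36 (SE 0.31) and 0.82 (SE 0.27).

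Both members of cyclic nucleotide signalling were higher with azacitidine in every treated library. Rapgef3 (ENSMUSG00000022469, chromosome 15, 97744770 to 97767972, minus strand), a cAMP-activated exchange factor of Rap GTPases, was at 15.3, 13.2, 25.3 and 22.3 CPM in WT with NaCl and at 37.4, 45.2 and 28.0 with azacitidine. In R882H it was at 20.6, 14.5, 24.2 and 22.6 CPM and 37.8, 35.5, 40.0, 35.5 and 32.3. The vehicle libraries numbered 1 and 2 were the lower ones here, the reverse of Clec11a and Lgals1, and the third treated WT library was only slightly above the highest vehicle library. The log2 changes were 0.95 (SE 0.23) and 0.82 (SE 0.21), the smallest of the 9 on average.

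Pde10a (ENSMUSG00000023868, chromosome 17, 8525372 to 8986648, plus strand), a phosphodiesterase that hydrolyses cAMP and cGMP, was at 2.16, 2.48, 1.57 and 0.773 CPM in WT with NaCl and at 8.20, 7.88 and 3.26 with azacitidine. In R882H it was at 1.86, 1.26, 0.814 and 1.60 CPM with NaCl and at 8.10, 2.87, 3.30, 2.44 and 4.89 with azacitidine. Neither genotype showed an overlap, although treated R882H replicate 1 was far above replicates 2 to 4. Its log2 changes, 1.88 (SE 0.48) and 1.64 (SE 0.44), were the largest of the set and had the largest errors; without treated R882H replicate 1 the R882H value was 1.28.

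Mgst2 (ENSMUSG00000074604, chromosome 3, 51660360 to 51682677, plus strand), which conjugates glutathione and can make leukotriene C4, was at 14.6, 14.5, 17.6 and 15.3 CPM in WT with NaCl and at 37.3, 39.8 and 27.1 with azacitidine. In R882H it was at 29.8, 11.9, 16.4 and 21.9 CPM with NaCl and at 30.6, 41.0, 49.7, 25.2 and 32.8 with azacitidine. The WT groups were separate, while R882H vehicle replicate 1 was above treated replicate 4. The log2 changes were 1.17 (SE 0.28) and 0.84 (SE 0.25).

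Lmo1 (ENSMUSG00000036111, chromosome 7, 109138572 to 109175207, minus strand), which bridges transcription factors to LDB1, was at 4.11, 3.92, 2.76 and 3.11 CPM in WT with NaCl and at 5.40, 7.79 and 4.70 with azacitidine. In R882H it was at 1.62, 2.31, 2.13 and 2.46 CPM with NaCl and at 3.67, 5.99, 4.80, 3.79 and 5.11 with azacitidine. Treated libraries were above vehicle libraries in both genotypes. The R882H vehicle libraries were all below the WT vehicle libraries, so the R882H log2 change, 1.13 (SE 0.24), started from a lower level than the WT change, 0.78 (SE 0.26).

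Mybpc3 (ENSMUSG00000002100, chromosome 2, 91118144 to 91136516, plus strand), a sarcomere gene of heart muscle, was at 1.27, 1.17, 1.09 and 1.19 CPM in WT with NaCl and at 2.59, 4.01 and 2.59 with azacitidine. In R882H the values were 1.45, 0.770, 0.718 and 0.916 CPM and 1.75, 1.70, 2.54, 1.75 and 2.44. There was no overlap between treatments, and the WT vehicle libraries were close together. The log2 changes were 1.37 (SE 0.30) and 1.08 (SE 0.27).

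Across the 9 genes, every treated library was above every vehicle library for 7 in WT (all but F2rl2 and Robo3), a pattern that 2.94% of the 18341 genes tested showed. In R882H this held for 6 (all but Lgals1, Mgst2 and Robo3), against 1.09% of all genes. It held in both genotypes for Clec11a, Mybpc3, Rapgef3, Pde10a and Lmo1, against 0.169% of all genes. The members were chosen on this contrast, and nothing is read from these shares. Median log2 changes were 1.36 in WT and 1.08 in R882H, beside 0.01 and -0.04 over all genes tested. With the 2 genotypes averaged, edgeR called 4 of the 18341 genes (0.0218%, or 0.0164% for the 3 with a higher level), namely Clec11a, Cd200r3, 4933406J09Rik and, with a lower level, Gm11837. For Clec11a this is a description and no test, since that contrast is the one its choice rests on.

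**Figure D2:**
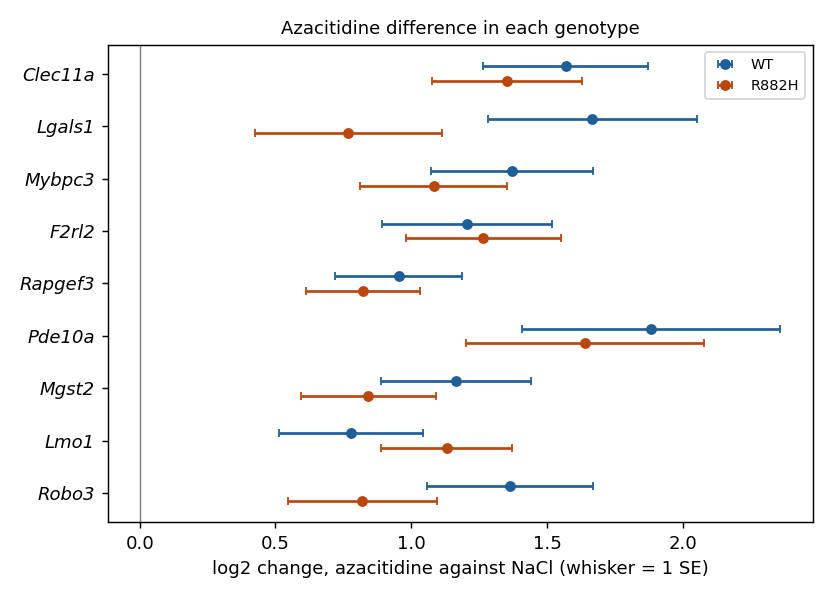
Fitted log2 change with azacitidine against NaCl (horizontal axis) for each gene in WT and in R882H, with whiskers of 1 SE. All 18 values lie above 0, from 0.77 for Lgals1 in R882H to 1.88 for Pde10a in WT, and the whiskers of the genotypes overlap for every gene but Lgals1.

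The R882H response minus the WT response, on the log2 scale, was -0.90 (SE 0.51) for Lgals1, -0.54 (SE 0.41) for Robo3 and 0.35 (SE 0.36) for Lmo1. It was smaller in size for the other 6, from -0.32 for Mgst2 to 0.06 for F2rl2. The value was negative for 7 of 9 members, with a median of -0.24 beside -0.05 over all genes. This difference was not tested, since both responses entered the choice of members. Over all genes, edgeR called none for this difference, with 1114 at an unadjusted p under 0.05; limma-voom called none and DESeq2 called 12.

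In treated WT cells the spread of the members ran mostly between replicates 2 and 3. Replicate 2 was the highest of the 3 for 8 of 9 members, all but Pde10a, and replicate 3 the lowest for 8, all but Mybpc3. Their median deviations from the group mean were 0.42 and -0.79 on the log2 scale. Without WT treated replicates 1 and 2 the WT changes were 0.63 for Clec11a, 0.49 for Lgals1, 0.28 for F2rl2, 0.55 for Rapgef3, 0.90 for Pde10a, 0.43 for Lmo1 and 0.38 for Robo3, all still above 0. That set was chosen after seeing the data and holds 1 treated WT library. Within libraries numbered 1 and 2, treated to vehicle ratios of mean CPM were above 1 for all 9 members in both genotypes, 1.64 to 3.46 in WT and 1.33 to 3.52 in R882H. Within libraries numbered 3 and above they were 1.18 to 2.78 in WT, where there was 1 treated library, and 1.54 to 3.03 in R882H. The value at 1.18 was that of Rapgef3.

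Levels of different genes were compared as FPKM, which is per length. In WT with NaCl the order was Lgals1 at 68.8 ± 16.9 FPKM (SD, n = 4), Mgst2 at 4.00 ± 0.455, Clec11a at 2.98 ± 0.872, Rapgef3 at 2.88 ± 0.911, F2rl2 at 2.66 ± 0.605, Lmo1 at 2.13 ± 0.367, Robo3 at 0.926 ± 0.203, Mybpc3 at 0.271 ± 0.0158 and Pde10a at 0.132 ± 0.0550. The ranges of neighbours overlapped from Mgst2 down to Lmo1. Lgals1, Robo3, Mybpc3 and Pde10a each had a range apart from those next to them in this order. Over all 16 libraries, Lgals1 averaged 122 FPKM, Clec11a 5.19 and Pde10a 0.253, at percentiles 97.5, 56.9 and 15.9 of the genes tested. Counts behind single values ran from 30 for the lowest member and library to 11559.

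The comparison of R882H with WT within each treatment was not the contrast the members were chosen on, and it was tested. It uses libraries whose values entered that choice, however. With 3 treated WT and 5 treated R882H libraries, the members' signs and p-values under azacitidine are not independent of it. With NaCl, Lmo1 was lower in R882H by -0.70 (SE 0.25) on the log2 scale (signed R882H minus WT, 95% interval -1.23 to -0.18), and all 4 R882H libraries were below all 4 WT libraries. That is 1 of 9 members without overlap, against 1.97% of all genes. The Lmo1 difference had an adjusted p of 0.797 in edgeR and did not pass. The other 8 ranged from -0.49 for Robo3 (interval -1.09 to 0.12) to 0.37 for Mgst2 (interval -0.18 to 0.91), with Clec11a at -0.16 (interval -0.76 to 0.44).

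With azacitidine, Robo3 had the largest genotype difference, -1.03 (SE 0.29) with an interval of -1.64 to -0.43 and an adjusted p of 0.533 in edgeR, so it did not pass either. Mybpc3 was the 1 member without overlap, lower in all 5 R882H libraries than in all 3 WT libraries, at -0.59 (SE 0.28) with an interval of -1.18 to 0.01; 10.7% of all genes showed no overlap here. Lgals1 was at -0.66 (interval -1.43 to 0.11), Clec11a at -0.38 (-0.99 to 0.23), Rapgef3 at -0.03 (-0.50 to 0.45) and Mgst2 at 0.04 (-0.52 to 0.61). These intervals include 0 but are wide, so equal levels were not shown.

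No member passed an adjusted p of 0.05 in edgeR in either genotype comparison, and 1 of 9 had an unadjusted p under 0.05 in each, Lmo1 with NaCl and Robo3 with azacitidine. DESeq2 and limma-voom called none either, with 1 and 1 unadjusted under NaCl and 2 and 2 under azacitidine. Over all 18341 genes edgeR called 1 gene in each (0.00545%), while 5.59% and 9.34% of genes had an unadjusted p under 0.05. The signs were negative for 6 of 9 members with NaCl and 8 of 9 with azacitidine, with medians of -0.30 and -0.39, beside 0.03 and -0.02 over all genes. Of the 8 negative signs with azacitidine, 5 turned without WT replicates 1 and 2. That set was chosen after seeing the data and leaves 1 treated WT library. Clec11a was then at 0.57, Lgals1 at 0.52, F2rl2 at 0.53, Rapgef3 at 0.38 and Pde10a at 0.41. Mybpc3 at -0.34, Robo3 at -0.050 and Lmo1 at -0.0034 stayed negative. With replicate 2 alone left out, Clec11a was at 0.09, F2rl2 at 0.05 and Rapgef3 at 0.15. With NaCl, Lgals1 was at -0.54 without R882H replicates 1 and 2.

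**Figure D3:**
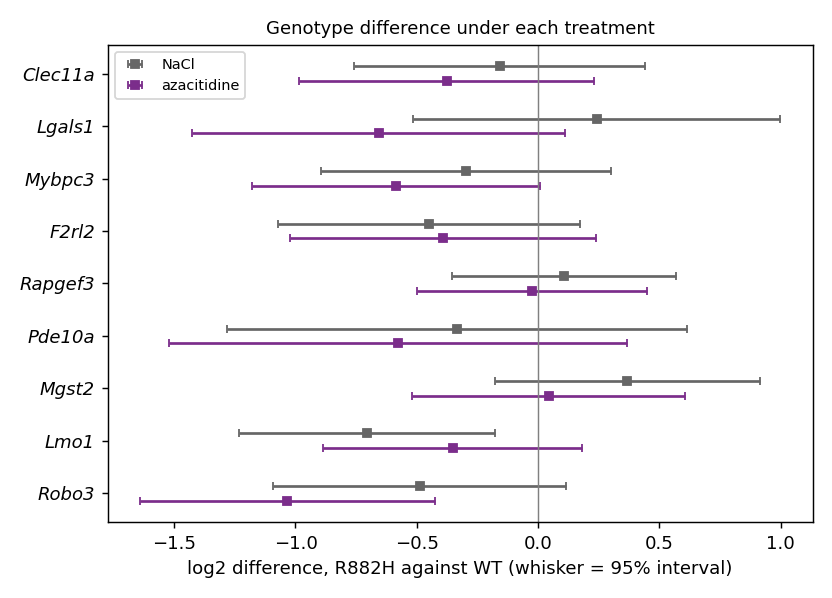
Fitted log2 difference of R882H against WT (horizontal axis) for each gene under NaCl and under azacitidine, with whiskers of the 95% interval. The intervals of Lmo1 under NaCl (-1.23 to -0.18) and Robo3 under azacitidine (-1.64 to -0.43) lie below 0, and all others include 0.

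Markers of other cells moved with the members in some groups. Neutrophil and monocyte progenitor markers (13 genes) summed to 1623 to 3997 CPM in WT with NaCl and to 4621, 10347 and 1702 in treated WT replicates 1, 2 and 3, the order in which Clec11a also lay. Their log2 changes were positive for 13 of 13 in WT, with a median of 1.19. In R882H they summed to 1692 to 5131 CPM with NaCl and 1751 to 4211 with azacitidine, and 7 of 13 were positive with a median of 0.03. Their part in the members' values was not tested, and in bulk RNA, more cells of a type and more RNA per cell cannot be told apart.

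**Figure D4:**
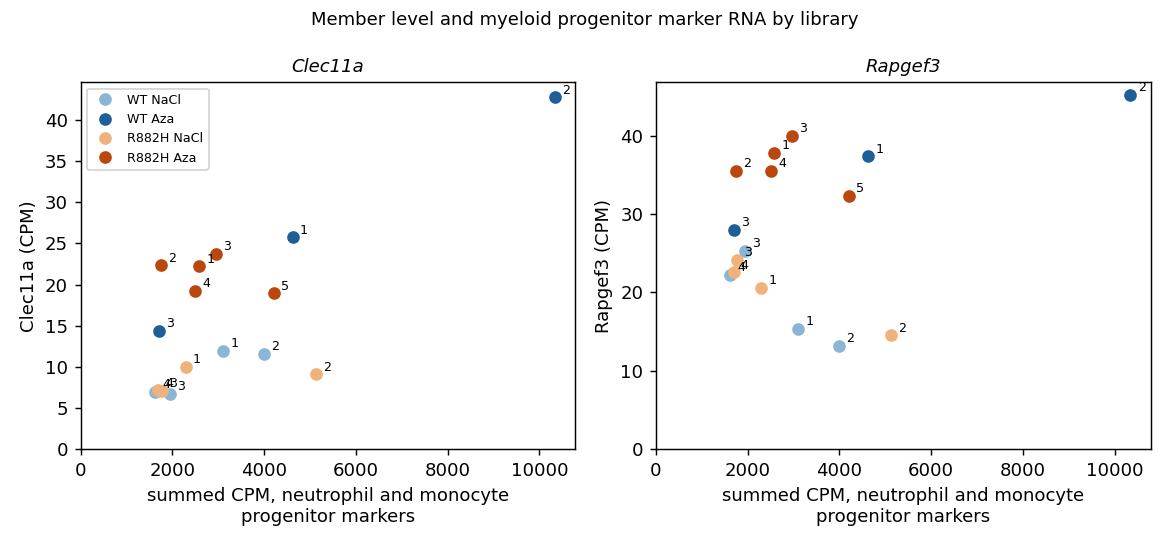
CPM of Clec11a (left) and Rapgef3 (right) in each library (vertical axes) against the summed CPM of 13 neutrophil and monocyte progenitor markers (horizontal axes), coloured by group and numbered by replicate. Treated WT replicate 2 lies far to the right at 10347 CPM, and the treated R882H libraries overlap the vehicle libraries on the horizontal axis, from 1751 to 4211 CPM.

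Mast cell and basophil markers had positive averaged changes for 10 of 11 counted genes, 1 of them called (Cd200r3). Their sums were 57.5 to 191 CPM and 158 to 342 in WT without and with azacitidine, and 85.5 to 228 and 112 to 250 in R882H. Mature neutrophil markers had positive averaged changes for 10 of 10. They summed to 651 CPM in treated R882H replicate 2 and to 5.56 to 12.1 in the other 4 treated R882H libraries. The R882H sums with NaCl were 4.45 to 154 CPM, so only treated replicate 2 lay above the vehicle range. In WT the sums were 20.9 to 114 CPM and 51.2 to 333 without and with azacitidine. Megakaryocyte and erythroid markers reached 10978 CPM in R882H vehicle replicate 2 and were at 1847 to 2330 in treated WT and 1906 to 2305 in treated R882H. The sum of stem cell markers was lowest in the same vehicle replicate, at 454 CPM, and reached 1853 in replicate 4. With azacitidine it was 689 to 1065 CPM in WT and 924 to 1433 in R882H. T and NK cell markers had positive changes for 10 of 13 genes in WT (median 0.55) and for 2 of 13 in R882H (median -1.99). Their sums were 347 to 713 CPM and 465 to 931 in WT without and with azacitidine, and 318 to 711 and 409 to 625 in R882H. The value of 711 CPM was that of R882H vehicle replicate 1, and vehicle replicates 2 to 4 were at 318 to 337. Nkg7 had the highest median of these genes, 387 CPM over the 16 libraries. Cd3d, Cd3e, Cd3g and Trac had medians of 0.451, 0.447, 0.677 and 0.705 CPM. B and plasma cell markers were positive for 1 of 11 in WT (median -0.52) and for 9 of 11 in R882H (median 0.31). They summed to 710 to 3247 CPM and 346 to 2021 in WT, and to 293 to 2458 and 1240 to 2571 in R882H. Macrophage and dendritic cell markers were positive for 4 of 13 in WT and 2 of 13 in R882H, with sums of 38.3 to 145 CPM over the 16 libraries, and endothelial markers for 4 of 7 in each, with sums of 203 to 374. None of the genes in these 4 lists was called in the averaged contrast.

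Marrow stroma and osteoblasts, where Clec11a is also known to be made, were followed by 13 genes, of which 7 were tested; 5 of the 7 were positive in WT (median 0.86) and 4 in R882H (median 0.07). The 13 summed to 109 to 158 CPM and 105 to 198 in WT without and with azacitidine, and to 72.4 to 148 and 98.1 to 150 in R882H. Runx2 (29.8 to 114 CPM) and Pdgfrb (31.8 to 82.4), which other cell types make too, were the highest. The secreted matrix genes Spp1, with a median of 4.41 CPM and a highest value of 18.8, and Col1a2, with 3.54 and 8.85, were above 0 in every library. Cxcl12, Col1a1 and Sparc did not exceed 1.75 CPM. Lepr, Kitl, Adipoq, Bglap, Sp7 and Pdgfra did not exceed 0.73 CPM, and Lepr, Adipoq and Bglap were at 0 counts in 9, 11 and 11 of 16 libraries. The part of all these cells in the members' values was not tested.

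The other genes of the members' families were read from 9 lists, which were written with earlier results of these data known. They name 175 genes besides the members, of which 165 were counted and 143 tested. In the averaged azacitidine contrast none was called in edgeR, in either direction, with 14 at an unadjusted p under 0.05; DESeq2 and limma-voom called none, with 13 and 9. Of the 143, 80 (55.9%) had a positive change, with a median of 0.04, beside 46.5% and -0.02 over all genes. Within single genotypes none was called either, with 13 at an unadjusted p under 0.05 in WT and 8 in R882H in edgeR, 14 and 10 in DESeq2 and 11 and 5 in limma-voom.

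Among haematopoietic growth factors and receptors, the family of Clec11a's first known function, 13 of 19 tested genes were positive with a median of 0.06. The interleukin-7 receptor Il7r was at -0.94 (adjusted p = 0.615 in edgeR), made of -0.42 in WT and -1.46 in R882H. The erythropoietin receptor Epor was at -0.67, made of 0.20 in WT and -1.53 in R882H. Their R882H vehicle libraries were spread widely, from 2.98 to 24.1 CPM for Il7r and from 12.8 to 232 for Epor. The galectin list, which also holds Lgals3bp, a gene of a galectin-binding protein, was positive in 3 of 7 besides Lgals1. Its median was -0.08, and Lgals3, the most changed, was at 0.37. None of these passed.

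In cAMP signalling, 17 of 33 genes were positive with a median of 0.03. The most changed were other phosphodiesterases, Pde1b at -0.94, Pde1c at -0.56 and Pde8a at -0.46, all with the opposite sign to Pde10a and none called. Among protease-activated receptors and thrombin pathway genes, 8 of 11 were positive. F2r, the main thrombin receptor, was at 0.54 (SE 0.15, adjusted p = 0.310 in edgeR), the thrombin inhibitor Serpine2 at 0.96 and the protein C receptor Procr, also a stem cell marker, at -0.99.

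Of membrane glutathione transferases and leukotriene genes, 11 of 22 were positive, with Ptges at -0.60 and Mgst3, a relative of Mgst2, at -0.53. Of LIM-only factors and their LDB1 complex, 6 of 14 were positive, with Gata2, which binds the complex in progenitors, at 0.36 and Gata1 at -0.21. ROBO and SLIT genes were positive in 8 of 15, with Srgap1, whose product works downstream of these receptors, at 0.42. Sarcomere genes beside Mybpc3 were positive in 5 of 8 tested, with none beyond 0.09 in size among Myl4, Tpm1 and Tnni3. DNA methylation genes were positive in 9 of 14, and the dioxygenase Tet3 was at 0.44, made of 1.12 in WT and -0.24 in R882H. No gene of these lists was called.

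The genes beside the members on the chromosome were compared as well. Of 18 nearest genes that passed the filter, 15 had a positive averaged change, beside 46.5% of all genes tested. Some of the 15 were near the floor, such as Shank1 (group means of 0.16 to 0.36 CPM), or had a change near 0, such as Gm9105 (0.00056). The cause of this share was not tested. None of the 18 was called in edgeR. Their changes had a median of 0.08, beside -0.02 over all genes, and a range of -0.40 to 0.77. The largest was 1700010I14Rik, 1685 bp beyond the end of Pde10a on the same strand, at 0.77 (SE 0.20, adjusted p = 0.268 in edgeR). Spi1, which encodes the myeloid transcription factor PU.1 and ends 2388 bp before Mybpc3 on the same strand, averaged 268 and 285 CPM in WT without and with azacitidine and 188 and 256 in R882H. Its change was 0.27 (SE 0.15), beside 1.23 (SE 0.20) for Mybpc3 on the same contrast. Mybpc3 was chosen on that contrast and Spi1 by position, so this order is no finding. Robo4, an endothelial and stem cell receptor 554 bp from Robo3 on the opposite strand, was at -0.40 (SE 0.30).

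**Figure D5:**
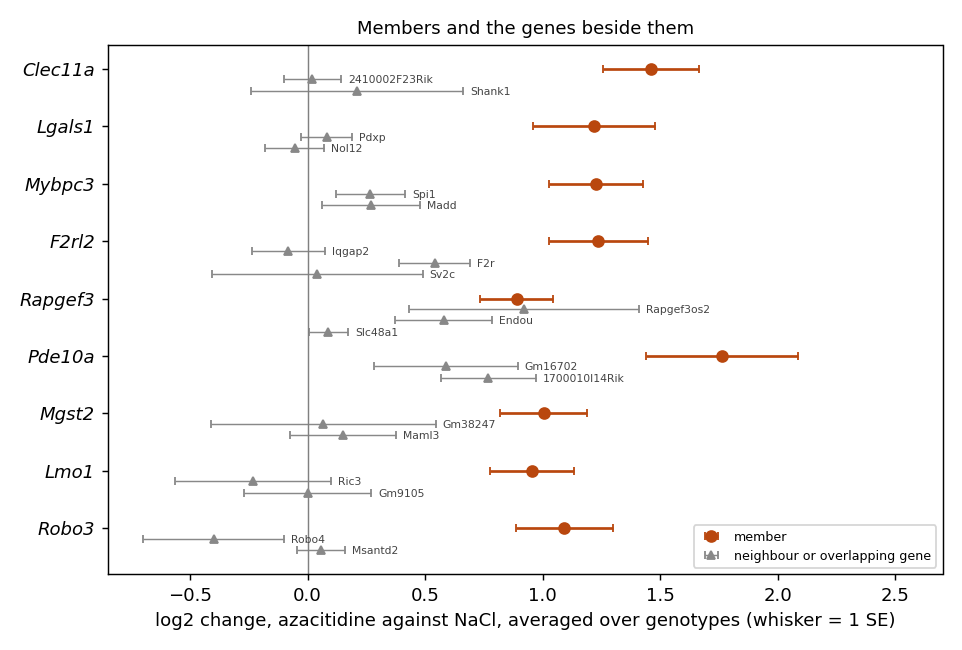
Averaged log2 change with azacitidine (horizontal axis) for each of the 9 genes and for the tested genes beside or overlapping it, with whiskers of 1 SE. The members lie at 0.89 to 1.76 and the nearest neighbours at -0.40 to 0.77. The overlapping Rapgef3os2, below 0.5 CPM in every group mean, lies at 0.92. The members were chosen on this contrast and their neighbours by position, so this order is no finding.

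Several members overlap other annotated genes. F2rl2 lies inside the span of Iqgap2 on the opposite strand; Iqgap2 averaged 157 to 178 CPM over the 4 groups and changed by -0.08 (SE 0.16). Rapgef3 overlaps the antisense transcripts Rapgef3os1 and Rapgef3os2, of which the latter did not exceed a group mean of 0.44 CPM. The transcripts overlapping Lmo1, Mgst2 and Pde10a had group means of at most 0.0650 CPM. Whether counting used the strand is not given in the sources used here, so reads from overlapping genes on opposite strands cannot be told apart, which matters most for F2rl2 inside the more abundant Iqgap2.

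Likeness to Clec11a was ranked by Pearson's r of log2 CPM over the 16 libraries, among 11124 named genes with a mean log2 CPM of at least 1. The most alike were Lgals1 (r = 0.925), F2rl2 (0.914), Pde10a (0.885), the transporter gene Dirc2 (0.880) and the butyrophilin-like gene Btnl9 (0.878). Members were selected for the same group difference, so 3 of them leading this order is no finding. The points share the 4 groups, the libraries and their composition, and these values are a description.

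With each group's mean removed, the genes most like Clec11a were R3hdm4 (r = 0.948), the inflammasome adaptor Pycard (0.937), the myeloid transcription factor Cebpd (0.927), Treml1 (0.918) and Plac8 (0.907). Within groups, Clec11a ran from 14.4 to 42.8 CPM in treated WT and from 18.9 to 23.7 in treated R882H. The treated WT libraries therefore weigh more in this order than the treated R882H libraries. With the group means kept, Spearman's rho over the 16 libraries was 0.482 for R3hdm4 and 0.462 for Pycard. That is another measure, and no rank correlation of the deviations was computed. Lgals1 ranked 15th in this measure at 0.880, whereas Rapgef3 was at -0.08. Over the 36 pairs of members, r ran from 0.533 to 0.925 over the 16 libraries (median 0.800) and from -0.16 to 0.88 after removal of the group means (median 0.349), with 30 of 36 positive. The values over all libraries hold the group difference that the members were chosen for, so the gap between these medians is no finding.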

How the data were processed

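The 9 genes, the gene lists and the tests were chosen with earlier results of these data known. Per the submitters' processing notes, reads were aligned with HISAT2 2.0.5 and counted with featureCounts 1.6.2 on GRCm38 (mm10), and edgeR 3.26.6 was used; strand and multi-mapping settings are not given in the sources used here. The authors deposited raw counts for 31342 features (30141 genes and 1201 repeat families). They also deposited FPKM values, which are these counts divided by feature length and 1 effective library size per library. The length column in the deposited files is another unit, in bases. Per the labels' protocols, RNA with a RIN of at least 8 was amplified with a low-input kit; reads carry no molecular identifiers.

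Gene positions come from GENCODE M21. Repeat families stayed out of library sizes. Genes were kept by filterByExpr, which left 18341 and all 9 members. An edgeR 4.0.16 quasi-likelihood model (R 4.3.3, TMM factors, 1 coefficient per group, all 16 libraries) gave each contrast; log2 CPM used a prior count of 2. Adjusted p is Benjamini-Hochberg over all genes tested, called under 0.05, and SE and 95% intervals come from the same fit. The procedure was tested on simulated data. The biological coefficient of variation was 40.7%. Of 25 library pairs within groups, the lowest chi-square per gene was 38.4, so none was a copy. The labels do not say that a replicate number marks a shared animal or day. Deviations from the group means of same-numbered WT and R882H libraries under NaCl correlated in all 4 pairs (r of 0.101, 0.342, 0.340 and 0.320). Unlike numbers correlated as well, at 0.270 and 0.258 between numbers 1 and 2 and at 0.313 and 0.296 between numbers 3 and 4. Pairs of a library numbered 1 or 2 with one numbered 3 or 4 were at -0.38 to -0.16. The main fit did not take the numbers as pairs, and a replicate term was tried as an alternative.

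Named genes were the 9 members, called genes of each family list and otherwise up to 3 with the largest averaged change at a mean log2 CPM of at least 1, the 5 genes most like Clec11a in each measure, and adjoining or overlapping genes. Mouse Dnmt3a was given as a check. Alternatives were DESeq2 1.42.0, limma-voom 3.58.1, other scalings, no filter, a replicate term, subsets of libraries, the deposited FPKM, and Spearman's rho. Genes without a row in the counts, such as Il3 and Robo2, were not analysed here, and some genes that the naming rule takes are not reported here.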

Additional observations from a re-analysis of the deposited data

Results flagged for a closer look

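Robo3 in R882H with azacitidine had 1 library far from the others: replicate 2 was at 6.08 CPM and the other 4 at 8.60 to 9.41. Its gap to the nearest library was 0.759 of the range of the group (n = 5), above Dixon's critical value of 0.710. It was 1 of 27 sets of 4 or 5 libraries examined, and chance alone would set apart about 1 in 20. The same library held the highest sum of mature neutrophil markers, 651 CPM, whose part in this value was not tested.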

How the results depend on the processing

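The members' azacitidine changes stayed positive in all 144 values with 1 library left out, in WT, in R882H and averaged, and in all 99, 90 and 90 values of the other alternatives. The members were chosen for this sign in the same libraries, so its persistence is a description and no test. For a single genotype, many of these fits left out a library of the other genotype. No member was called for genotype under any of them. Counts of called genes over the whole table moved more, and the cause was not tested. For R882H against WT under NaCl, edgeR called 1 gene, DESeq2 28, libraries numbered 3 and above 2, and no filter, the 2 groups alone or the set without R882H NaCl replicates 1 and 2 gave 0; leaving out single libraries gave 0 to 1. Under azacitidine, against 1, DESeq2 called 21, libraries numbered 1 and 2 gave 9, those numbered 3 and above 2, and limma-voom, no filter, the 2 groups alone and the set without WT azacitidine replicates 1 and 2 (an alternative chosen after seeing the data) gave 0; single libraries left out gave 0 to 1. For azacitidine in WT, against 0, DESeq2 called 46 and libraries numbered 3 and above 1; single libraries left out gave 0 to 7, the 7 without WT azacitidine replicate 3. In R882H, against 1, DESeq2 called 88, libraries numbered 3 and above 233 and those numbered 1 and 2 53, and no filter, the 2 groups alone and the set without R882H NaCl replicates 1 and 2 gave 0; single libraries left out gave 0 to 1. Averaged, against 4, DESeq2 called 161, the set without R882H NaCl replicates 1 and 2 102, libraries numbered 3 and above 860, those numbered 1 and 2 0, and the set without WT azacitidine replicates 1 and 2 0; single libraries left out gave 2 to 46, the 46 without WT azacitidine replicate 3. For the difference between responses, against 0, DESeq2 called 12, libraries numbered 3 and above 2 and those numbered 1 and 2 4. A replicate block gave 1, 0, 0, 0, 3 and 0 calls for these 6 contrasts, called no member for genotype and turned no sign of a member's genotype difference. Outside the NaCl groups, same-numbered libraries did not all deviate together. Over all 21 pairs r was -0.12 to 0.34, 9 above 0.1, with 6 of 16 libraries most like one of their own number. Treated WT replicate 3 correlated with the NaCl libraries numbered 3 and 4 at 0.228 to 0.375. With those numbered 1 and 2 it was at -0.415 to -0.070. For treated WT replicates 1 and 2, r was -0.350 to 0.009 and 0.015 to 0.287, in the same order. What sets these numbers apart is not labelled. The main fit read the numbers as a pairing in no comparison.

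Signs of genotype differences that turned were the following, on the log2 scale. Under NaCl in libraries numbered 3 and above, Clec11a was at 0.063, Lgals1 at -0.19, Rapgef3 at -0.019 and Pde10a at 0.057. Lgals1 was at -0.54 without R882H NaCl replicates 1 and 2, and Rapgef3 ran from -0.034 to 0.27 over single libraries left out. Under azacitidine in libraries numbered 3 and above, Clec11a was at 0.52, Lgals1 at 0.41, F2rl2 at 0.70, Rapgef3 at 0.36, Pde10a at 0.12 and Robo3 at 0.042. Without WT azacitidine replicates 1 and 2, Clec11a was at 0.57, Lgals1 at 0.52, F2rl2 at 0.53, Rapgef3 at 0.38 and Pde10a at 0.41. Each of these sets holds 1 treated WT library. Rapgef3 was at 0.000285 in limma-voom, and Mgst2 at -0.064 in libraries numbered 1 and 2. With single libraries left out, Clec11a ran from -0.68 to 0.091, F2rl2 from -0.69 to 0.054, Rapgef3 from -0.18 to 0.15 and Mgst2 from -0.10 to 0.16. Clec11a's likeness and the members' levels held with Spearman's rho (median 0.888 against 0.885) and with FPKM (averaged median change 1.23 against 1.22).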
